A study of Mus musculus with 2 samples.

Results

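Heat shock proteins and molecular chaperones bind proteins that are unfolded, newly made or damaged and help them to reach or regain their shape. The members described here are the 86 genes, of 55536 annotated genes, that had a transcript annotated as protein-coding and a symbol of the Hspa, Hspb, Hsp90, Hspd, Hspe, Hsph, Dnaja, Dnajb, Dnajc, Bag or Cct families. They were chosen by name and not by level. Their RNA was measured by total RNA sequencing of 2 hearts from female B6CASTF1/J mice, an F1 strain, at 4 days of age. The hearts form a single group, for which the labels name no treatment. Each stranded library was made from 300 ng of RNA after removal of ribosomal RNA, with synthetic ERCC spike-ins added. The labels number the hearts as biological replicates 1 and 2 but give both the same donor, so the spread between them may be partly technical. No conditions can be compared, and a two-sided permutation of 2 libraries cannot go below p = 0.5, so no p-value is given.

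The families work in a relay. HSP70 proteins (Hspa) bind short stretches of an unfolded chain in a cycle driven by ATP, J-domain proteins (Dnaja, Dnajb and Dnajc) deliver the chain and start the cycle, and exchange factors (Bag, Hsph and Hspa4) end it by releasing ADP. HSP90 takes over proteins that are nearly folded, the CCT ring and the mitochondrial HSP60 ring fold proteins inside a cavity, and small heat shock proteins (Hspb) hold unfolded proteins without using ATP. In heart muscle several small heat shock proteins and Bag3 are known to guard the contractile filaments. Heat shock factor 1 switches on the inducible members through heat shock elements, arrays of the letters GAA and its complement, while chaperones of the endoplasmic reticulum (ER) answer to the ER stress response element.

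Promoters are printed here for members that carry such elements, since the families' levels are later read beside them. RefSeq sequence (GRCm38.p6) from 250 bases before to 50 after a start site was matched for 70 of the 86 members, in 90 windows of 32851. A heat shock element of 3 units (GAANNTTCNNGAA, either strand) was found in windows of 4 of the 70 members, Dnajb6, Hspd1, Hspe1 and Hsph1, or 5.71%, against 0.662% of all 27025 genes with a window. Hspd1 and Hspe1 start in opposite directions, 215 bases apart on chromosome 1, so their windows hold the same element. A 2-unit element (GAANNTTC, which lies within every 3-unit element) was found in 17 members, or 24.3%, against 9.04% of genes. The opposite arrangement (TTCNNGAA) was found in 7, or 10%, against 9.60%. An ER stress response element (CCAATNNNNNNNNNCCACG, either strand) was found in Hspa5, Hsp90b1 and Dnajc3, which is 4.29% of members against 0.137% of genes. A match is a match of letters only, and binding was not measured.

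The stretch between the Hspd1 and Hspe1 start sites (chr1:55087933-55088147, forward strand, read towards Hspe1) has its heat shock units in capitals:
Hspd1 and Hspe1: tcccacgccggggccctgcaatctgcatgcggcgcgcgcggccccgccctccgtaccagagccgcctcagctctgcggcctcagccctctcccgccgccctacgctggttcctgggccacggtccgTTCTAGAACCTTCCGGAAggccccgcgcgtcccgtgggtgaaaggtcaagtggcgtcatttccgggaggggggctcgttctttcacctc
The bases before the start sites of Hspa1a (chr17:34972157-34972306, reverse strand), Hspa1b (chr17:34959239-34959388, reverse strand), Hspb1 (chr5:135887769-135887918, forward strand) and Dnajb6 (chr5:29735798-29735897, forward strand) follow, with heat shock units in capitals:
Hspa1a: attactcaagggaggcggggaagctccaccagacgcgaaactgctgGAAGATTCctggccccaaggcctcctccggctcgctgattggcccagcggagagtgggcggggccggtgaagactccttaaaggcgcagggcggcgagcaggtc
Hspa1b: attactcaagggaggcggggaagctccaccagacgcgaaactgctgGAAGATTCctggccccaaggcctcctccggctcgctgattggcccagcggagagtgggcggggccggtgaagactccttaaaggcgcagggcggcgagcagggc
Hspb1: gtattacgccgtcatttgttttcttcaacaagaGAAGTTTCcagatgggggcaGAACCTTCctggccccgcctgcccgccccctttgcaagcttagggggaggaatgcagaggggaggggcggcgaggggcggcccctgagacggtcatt
Dnajb6: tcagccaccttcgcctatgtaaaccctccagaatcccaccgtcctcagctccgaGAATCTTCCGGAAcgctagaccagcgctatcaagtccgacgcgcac
The ER chaperone promoters of Hspa5 (chr2:34771940-34772089, forward strand), Hsp90b1 (chr10:86705445-86705694, reverse strand) and Dnajc3 (chr14:118937782-118937931, forward strand) have the ER stress response element in capitals:
Hspa5: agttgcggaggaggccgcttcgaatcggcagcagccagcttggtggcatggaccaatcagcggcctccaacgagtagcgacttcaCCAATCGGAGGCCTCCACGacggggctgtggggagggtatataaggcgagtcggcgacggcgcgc
Hsp90b1: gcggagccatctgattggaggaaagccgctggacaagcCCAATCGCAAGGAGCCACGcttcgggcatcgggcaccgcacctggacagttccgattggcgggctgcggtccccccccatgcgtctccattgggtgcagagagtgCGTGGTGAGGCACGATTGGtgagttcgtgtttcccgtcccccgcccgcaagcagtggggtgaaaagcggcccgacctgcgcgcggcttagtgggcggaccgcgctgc
Dnajc3: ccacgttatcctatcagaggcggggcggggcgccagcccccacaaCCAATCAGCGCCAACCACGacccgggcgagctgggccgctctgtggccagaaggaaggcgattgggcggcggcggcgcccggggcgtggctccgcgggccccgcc
Hsp90b1 holds the element on both strands. The Hspa1a and Hspa1b promoters were identical at 296 of 300 bases of the full window and at 149 of the 150 bases shown.

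Levels are given in TPM, a unit corrected for transcript length and library total, and a pair of values is replicate 1 and then replicate 2. Of the 86 members, 75 reached 1 TPM in both hearts, 45 had a mean of at least 20 TPM and 12 of at least 100 TPM. The median of the 75 was 23.4 TPM, against 12.5 TPM over the 11948 protein-coding genes that reached 1 TPM. Of the 75, 22 stood in the top 10% of the 13402 expressed genes, above 64.8 TPM. All members together held 0.474% of TPM (0.474% in both libraries). The 5 highest members held 38.4% of the members' TPM and the 8 highest held 48.7%. The other 11 members stood below 1 TPM in both hearts.

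**Figure D1:**
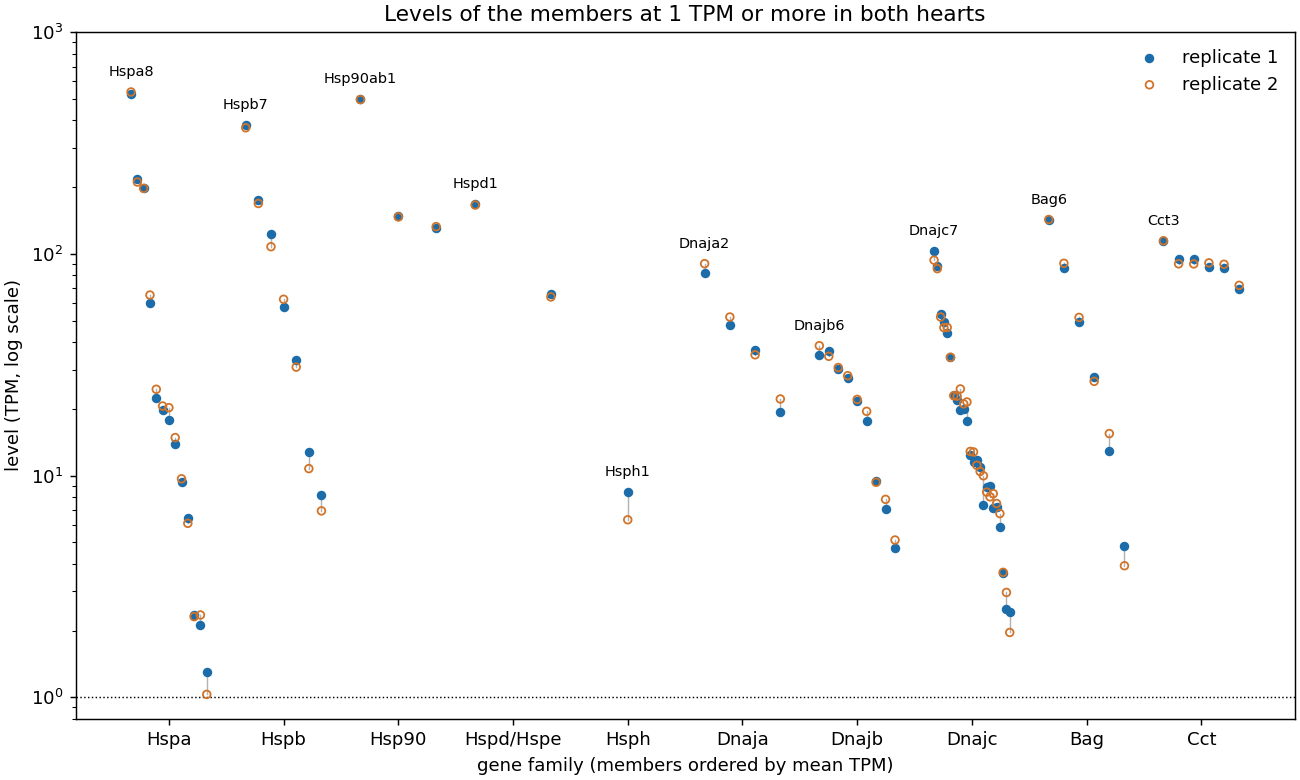
Level of each of the 75 members that reached 1 TPM in both hearts, by family (log scale, TPM), with replicate 1 filled, replicate 2 open and the highest member of each family named. The 2 hearts nearly coincide for the high members, and the Hspa family spans the widest range, from Hspa8 at 526 and 538 TPM to Hspa1a at 1.30 and 1.03 TPM.

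By family, the 13 Hspa genes held 23.3% of the members' TPM, the 3 Hsp90 genes 16.4%, the 8 Hspb genes 16.4%, the 28 Dnajc genes 12.2% and the 8 Cct genes 11.5%. The 6 Bag genes held 6.92%, Hspd1 with Hspe1 4.89%, the 13 Dnajb genes 4.09%, the 4 Dnaja genes 4.06% and Hsph1 0.156%. All 13 Hspa genes were expressed, as were all members of the Hsp90, Hspd, Hspe, Hsph, Dnaja and Bag families. The Hspb genes reached the threshold in 7 of 8 cases, the Cct genes in 6 of 8, the Dnajb genes in 9 of 13 and the Dnajc genes in 24 of 28.

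The HSP70 genes ranged from the highest member to the lowest of the expressed members. Hspa8, the constitutive HSP70 of the cytosol, had the highest level of all members, 526 and 538 TPM, rank 95 among protein-coding genes. Hspa9, the HSP70 of the mitochondrial matrix, stood at 218 and 211 TPM, and Hspa5, the HSP70 of the ER known as BiP, at 199 and 198 TPM. In the gene tables the levels of the 3 did not overlap between hearts, and Hspa8 was 2.48-fold above Hspa9 and 2.69-fold above Hspa5. In the second quantification Hspa5 stood above Hspa9, at 262 and 262 TPM against 243 and 237 TPM. Hspa1a, the inducible HSP70, stood at 1.30 and 1.03 TPM (105 and 72.7 expected counts) and its near-identical neighbour Hspa1b at 2.11 and 2.35 TPM (160 and 156 expected counts). Hspa1b was 1.92-fold above Hspa1a, and their promoters are the nearly identical sequences printed above. The split between them is uncertain, since 65.4% of the 31-base words of Hspa1a transcripts and 68.0% of those of Hspa1b are shared with other genes, mainly with each other. Their deposited posterior SDs were the largest of the expressed members, 8.99% and 11.6% of the count for Hspa1a and 5.85% and 5.42% for Hspa1b.

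The testis-enriched relatives were low as well. Hspa1l, which lies on chromosome 17 beside Hspa1a with 546 bases between their annotated spans, stood at 2.34 and 2.31 TPM. Hspa2 stood at 6.46 and 6.09 TPM, 84.8-fold below Hspa8. Among the HSP110-type exchange factors the order was Hspa4 at 60.2 and 65.2 TPM, Hspa4l at 19.8 and 20.6 TPM and Hsph1 at 8.43 and 6.32 TPM. Hspa4 was 8.59-fold above Hsph1, which is known to be strongly induced by heat and carries a 3-unit heat shock element just after its start sites. Hspa14, which works with Dnajc2 on the ribosome, stood at 22.3 and 24.5 TPM. The distant relatives Hspa12b and Hspa12a stood at 17.9 and 20.3 TPM and at 13.9 and 14.8 TPM, and Hspa13, found in the secretory pathway, at 9.37 and 9.67 TPM.

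In the HSP90 family the constitutive form predominated. Hsp90ab1, the constitutive HSP90 of the cytosol, stood at 502 and 497 TPM, rank 107 among protein-coding genes. Hsp90b1, the HSP90 of the ER, stood at 149 and 147 TPM, and Hsp90aa1, the inducible form of the cytosol, at 131 and 133 TPM. Hsp90ab1 was 3.79-fold above Hsp90aa1, with a log2 ratio of 1.92 ± 0.025 (SD, n = 2). The second quantification gave 1.56, or 2.94-fold. The ER pair that shares the ER stress response element differed by less, with Hsp90b1 at a log2 ratio of -0.42 ± 0.0075 (SD, n = 2) to Hspa5, or 1.34-fold lower. For this pair the second quantification gave -0.60, or 1.51-fold lower.

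The small heat shock proteins were led by muscle members. Hspb7, which binds filamin C and is found mainly in heart and skeletal muscle, stood at 383 and 371 TPM, rank 181 among protein-coding genes. Hspb1, known as HSP27 or HSP25, stood at 176 and 169 TPM, and Hspb6, known as HSP20, at 124 and 108 TPM. Hspb7 was 3.27-fold above Hspb6, and Hspb1 was 1.49-fold above it. The next members were Hspb2 at 57.7 and 62.4 TPM and Hspb8 at 33.3 and 30.9 TPM, with no overlap between them. By CPM, counts scaled to the library total with no length correction, Hspb8 stood above Hspb2, at 44.1 and 40.0 against 28.4 and 29.9. Lower still were Hspb3, a partner of Hspb2 in muscle, at 12.8 and 10.8 TPM, and Hspb11 at 8.17 and 6.93 TPM. Hspb11 carries the family's name but is known as a component of intraflagellar transport. Hspb9, known from testis, had a count of 0 in both hearts. Cryab, the αB-crystallin that is the best known small heat shock protein of heart and lies outside the naming rule, stood at 525 and 537 TPM over all transcripts, above every Hspb gene. From protein-coding transcripts alone it stood at 303 and 284 TPM, below Hspb7. For Hspb1, 52.3% of 31-base words also occur in other genes, chiefly its pseudogene Hsp25-ps1. That pseudogene was given 316 and 243 expected counts (21.2 and 18.6 TPM), beside 3972 and 3334 for Hspb1, and the division of reads between them is uncertain.

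The mitochondrial chaperonin is a ring of HSP60 (Hspd1) closed by a lid of HSP10 (Hspe1). Hspd1 stood at 168 and 166 TPM and Hspe1 at 65.7 and 64.0 TPM, so that the ring gene was 2.58-fold above the lid gene (log2 ratio 1.37 ± 0.016, SD, n = 2). The second quantification gave a log2 ratio of 0.96, or 1.94-fold. The 2 genes start at either end of the sequence printed above. By CPM, counts scaled to the library total and not corrected for the short length of Hspe1, the ratio was 8.69-fold. In GENCODE M21 the pair overlaps (mm10, Hspd1 at chr1:55077835-55088243 on the reverse strand and Hspe1 at chr1:55088132-55091307 on the forward strand), and whether counting used strand is not given in the sources used here. In all, 15 processed pseudogenes whose symbols match the naming rule, most of them named for Hspd1 or Hspe1, took 65.0 and 41.0 expected counts, with 0 of them at 1 TPM in both hearts.

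Among J-domain proteins of type A, Dnaja2 stood at 81.7 and 90.4 TPM and Dnaja1 at 47.7 and 51.9 TPM. Both are cytosolic partners of Hspa8, and Dnaja2 was 1.73-fold the higher. Dnaja3, the type A partner of Hspa9 in mitochondria, stood at 36.7 and 35.1 TPM, 5.98-fold below Hspa9. Dnaja4 stood at 19.4 and 22.2 TPM.

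The highest type B genes stood below Dnaja1 and close to each other. Dnajb6, which suppresses protein aggregation, stood at 35.0 and 38.5 TPM and Dnajb5 at 36.5 and 34.5 TPM, and these overlapped. Dnajb11, an ER partner of Hspa5, stood at 30.3 and 30.7 TPM and Dnajb4 at 27.6 and 28.2 TPM. Dnajb2 stood at 21.8 and 22.1 TPM, 1.68-fold below Dnajb6. Dnajb1, the stress-inducible HSP40, stood at 9.46 and 9.33 TPM, 2.97-fold below Dnajb4. Hspa1a, Hspa1b, Hsph1 and Dnajb1, all known to be strongly induced by heat, thus stood below the members' median of 23.4 TPM. Hsp90aa1, Hspb1, Hspd1 and Hspe1, which heat also induces, stood above it. This grouping was made after their values were seen.

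The type C genes serve mostly single compartments. Dnajc7, a co-chaperone that binds both HSP70 and HSP90, led at 103 and 93.7 TPM in the gene tables. In the second quantification Dnajc15 led at 189.6 and 177 TPM, against 147 and 129.7 TPM for Dnajc7, and by CPM Dnajc5 stood at 127 and 122 against 85.6 and 79.5 for Dnajc7. Dnajc15 and Dnajc19, J-domain proteins of the mitochondrial inner membrane, stood at 88.1 and 85.8 TPM and at 53.4 and 51.9 TPM. Dnajc5, the cysteine string protein of secretory vesicles, stood at 49.1 and 46.5 TPM, overlapping Dnajc11 of mitochondria at 43.9 and 46.6 TPM. Dnajc8, a spliceosome component, stood at 34.1 and 34.2 TPM. A close group followed, with Dnajc10, an ER reductase, at 23.0 and 22.9 TPM, Dnajc4 at 21.8 and 22.8 TPM, Dnajc13 of endosomes at 19.8 and 24.6 TPM and Dnajc14 at 19.95 and 21.1 TPM. The ER members Dnajc3 and Dnajb9 stood at 12.4 and 12.9 TPM and at 7.06 and 7.81 TPM. Dnajc3 was 1.70-fold above Dnajb9, but in the second quantification the log2 ratio was 0.023 in replicate 1 and 0.64 in replicate 2.

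BAG proteins were led by Bag6, which directs membrane proteins to their targeting route, at 142 and 143 TPM. Bag1, the founding exchange factor of the family, stood at 86.7 and 90.7 TPM. Bag3, which joins Hspb8 in clearing damaged filament proteins from muscle, stood at 49.3 and 51.7 TPM. Bag3 was 1.58-fold above its partner Hspb8, Bag1 was 1.76-fold above Bag3, and Bag6 was 2.83-fold above Bag3. The others were Bag2 at 27.8 and 26.6 TPM, Bag5 at 13.0 and 15.5 TPM and Bag4 at 4.80 and 3.92 TPM.

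The CCT ring, which folds actin and tubulin, is built from 8 different subunits in equal number. Here 6 of the 8 Cct members and 2 ring subunits that are not members, Tcp1 and Cct6a, were expressed. Among the 6 members, Cct3 stood highest at 114 and 115 TPM and Cct4 lowest at 69.1 and 72.1 TPM, a range of 1.62-fold ± 0.042 (SD, n = 2). Between them, Cct8 (94.6 and 90.2 TPM), Cct5 (94.5 and 90.1 TPM), Cct7 (87.3 and 91.1 TPM) and Cct2 (86.5 and 89.8 TPM) lay close together. Cct8 and Cct5 stood narrowly above Cct2 without overlap, and Cct7 overlapped each of the 3. In the second quantification Cct2 stood above both, at 163 and 169 TPM. There Cct8 stood at 156 and 148 TPM and Cct5 at 144 and 134 TPM. Tcp1, the first subunit, stood at 131 and 134 TPM. Cct6a, which the annotation lists without a protein-coding transcript and which the rule therefore left out, stood at 61.7 and 72.1 TPM. Over all 8 ring subunits the range was 2.13-fold and 1.85-fold, from Tcp1 to Cct6a. The members Cct6b and Cct8l1, relatives of Cct6a and Cct8, were near 0, with 6 and 3 and with 0 and 1 expected counts.

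**Figure D2:**
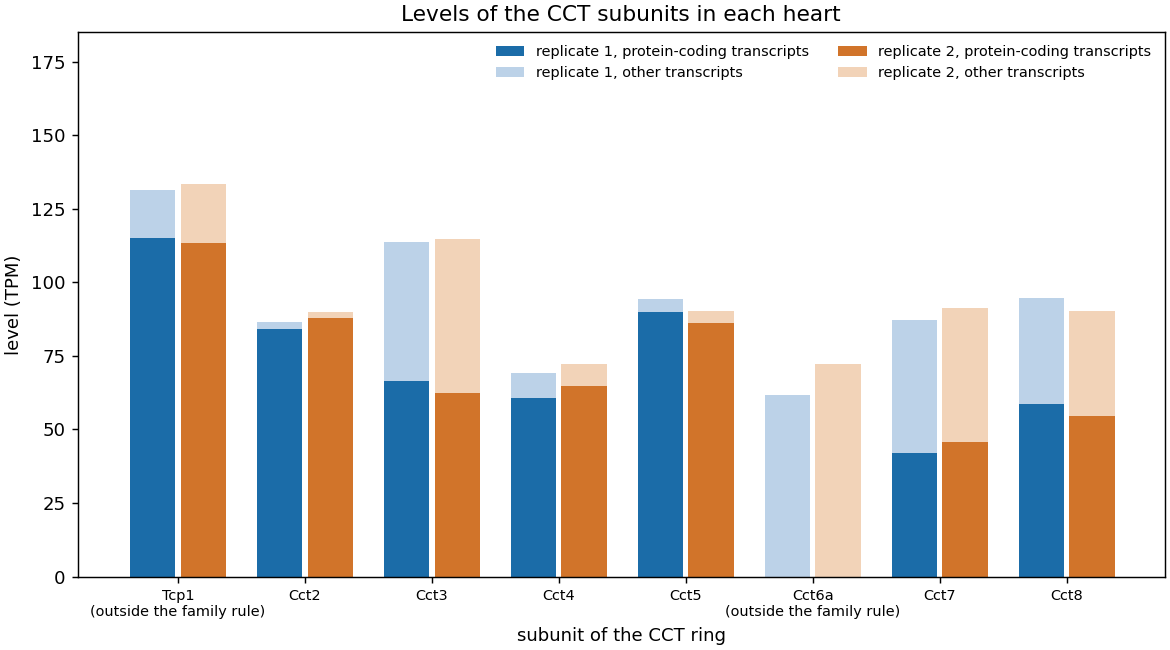
Level of each CCT ring subunit in replicates 1 and 2 (TPM, bars from 0), with the share from protein-coding transcripts dark and from other transcript classes pale. Total levels of the 6 family members span 1.65-fold and 1.59-fold in the 2 hearts, while the dark part of Cct7 (42.1 and 45.7 TPM) is the lowest of the 6 in both hearts.

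The 11 members below 1 TPM were 4 Dnajb, 4 Dnajc, 2 Cct and 1 Hspb gene. Dnajb3 came nearest, at 0.71 and 0.68 TPM. Counts were 22 and 8 for Dnajc22, 33 and 14 for Dnajc6 (auxilin, which uncoats clathrin vesicles and is best known from neurons) and 2 and 2 for Dnajc5b. Dnajb7 had 0 and 1. Hspb9, Dnajb13, Dnajb8 and Dnajc5g had none in either heart, which allows up to 3 counts, or 0.0829 CPM in replicate 1 and 0.0923 CPM in replicate 2. That limit covers counting error only.

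Over all transcripts, the 20 fixed pairs of members each kept the same order in both hearts and both quantifications, with no overlap of levels in the gene tables. No share over other gene pairs was computed to set beside this count, and both quantifications used the same 2 libraries. The sizes of the ratios held less well than the orders. In the second quantification 14 of the 20 log2 ratios moved by at least their SD over the 2 hearts. By CPM 17 moved so and 2 reversed. Outside the fixed pairs some orders changed in the second quantification, among them Hspa9 and Hspa5, Hsp90b1 and Hsp90aa1, and Cct2 with Cct5 and Cct8. By CPM, 18 of the 20 fixed pairs kept their order. The exceptions were Hspb1 against Hspb6 and Bag1 against Bag3, whose log2 ratios were 0.58 and 0.81 by TPM and -0.074 and -0.22 by CPM, since the scales treat length differently. From protein-coding transcripts alone, compared after the data were seen, Dnajc19 and Dnajc15 changed order. Dnajc19 then stood at 25.4 and 23.9 TPM and Dnajc15, the higher over all transcripts, at 2.33 and 1.92 TPM.

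Total RNA holds spliced and unspliced transcripts. The level of a gene here sums its annotated transcripts only, retained intron transcripts among them. Over the members at 1 TPM or more, 84.7% of TPM came from transcripts annotated as protein-coding, 6.58% from retained introns, 4.58% from nonsense-mediated decay transcripts, which are degraded after a premature stop, and 4.09% from processed transcripts, which have no open reading frame. The same shares over all protein-coding genes at 1 TPM or more were 86.5%, 6.36%, 2.08% and 5.04%. By estimated counts the protein-coding share was 94.3% for the members and 93.1% for all those genes. The largest nonsense-mediated decay transcripts of members were Hsp90ab1-206 (68.6 and 67.0 TPM, but 0 and 8.60 TPM in the second quantification), Cct7-202 (43.8 and 42.5 TPM), Cct8-209 (34.3 and 32.9 TPM) and Dnajc15-201 (32.6 and 30.8 TPM).

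In 4 of the 75 members the most abundant transcript was not protein-coding, against 6.83% of the 12124 protein-coding genes with a mean of 1 TPM or more. They were Dnajc15, Dnajc19, Cct7 and Dnajc24. For Dnajc15, 2.64% and 2.24% of TPM but 28.4% and 25.2% of estimated counts came from its coding transcript, which is much longer than the others. Its leading transcript, Dnajc15-203, is a processed transcript of 419 nt and stood at 53.2 and 53.1 TPM. Dnajc19-205, a retained intron transcript also of 419 nt, stood at 28.0 and 28.1 TPM but at 0 in both hearts in the second quantification. Cct7-202 exceeded the coding Cct7-201, which stood at 25.7 and 27.4 TPM, and did so in the second quantification as well (56.5 and 59.8 against 48.9 and 47.9 TPM). Dnajc24-202 stood at 3.33 and 3.59 TPM, and the coding Dnajc24-201 exceeded it in the second quantification at 7.94 and 7.56 TPM.

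In the second quantification the count was also 4, with Dnajc15 and Cct7 in common, against 9.58% of genes. The other two were Cct8, led by Cct8-209 (68.0 and 63.5 TPM), and Dnaja2, led by the retained intron transcript Dnaja2-202 (73.9 and 79.0 TPM). Other members with a low coding share by TPM were Dnajc11 (45.7% and 47.2%), Dnajc7 (57.1% and 54.6%) and Cct3 (58.2% and 54.5%). Dnaja2 (59.2% and 52.5%) and Dnaja1 (62.3% and 57.8%) were also low. By estimated counts the shares were 69.9% and 69.8% for Dnajc11, 73.3% and 72.5% for Dnajc7 and 85.4% and 83.2% for Cct3. For Dnaja2 they were 90.9% and 88.4%, and for Dnaja1 79.1% and 77.1%. For Hsph1 the coding share was 66.0% and 89.1% by TPM and 86.7% and 94.3% by estimated counts. Its retained intron transcript of 751 nt stood at 2.14 and 0.37 TPM. The coding Hsph1-206, of 661 nt, stood at 1.07 and 0.27 TPM, while the longer coding Hsph1-211 and Hsph1-201 were higher in replicate 2. The TPM of the gene, 8.43 and 6.32, differed more than its expected counts, 494 and 490, and the cause was not tested.

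**Figure D3:**
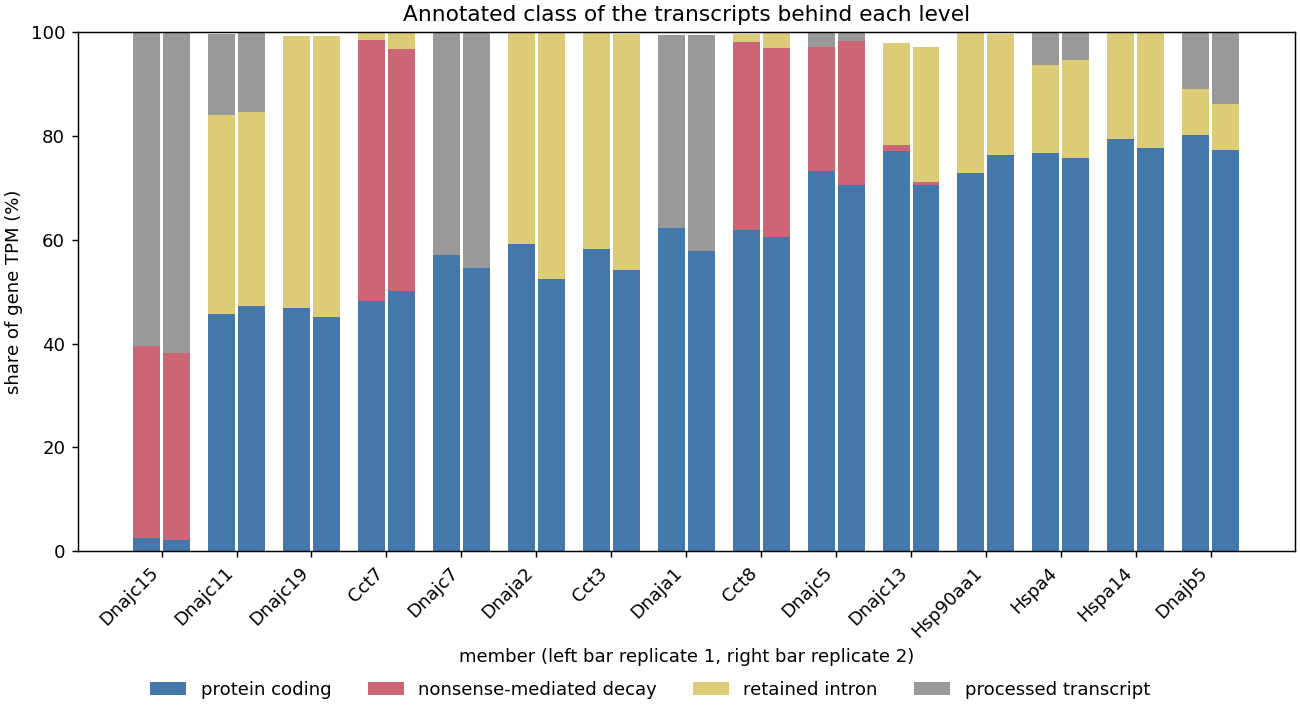
Share of each gene's TPM by annotated transcript class for the 15 members with a mean of at least 20 TPM and the lowest mean coding shares, up to 78.7% for Dnajb5, with replicate 1 left and replicate 2 right (transcripts whose summed TPM was under 1 in both quantifications are not drawn). Dnajc15 has the lowest coding share by TPM (2.64% and 2.24%), and the classes of a gene are alike in the 2 hearts.

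The second quantification gave the same 75 expressed members but other levels for some. Over protein-coding genes its TPM was higher by a median of 0.38 on the log2 scale, and members are compared after that shift. The 5 with the largest departures were Dnajc15 (0.70), Dnajc8 (0.69), Dnajc11 (0.69), Cct3 (-0.64) and Cct2 (0.54). There Cct3 stood at 95.4 and 95.6 TPM and was no longer the highest of the 6 Cct members, and Cct2 led at 163 and 169 TPM. The retained intron transcript Cct3-203, of 472 nt, stood at 45.7 and 50.3 TPM in the first quantification and at 0 and 2.27 TPM in the second, where the coding share of Cct3 was 95.4%. Transcripts of Hspa8 were divided differently too. Hspa8-201 and Hspa8-202, both coding, stood at 222 and 230 TPM and at 211 and 216 TPM in the first quantification. In the second, Hspa8-201 stood at 488 and 508 TPM and Hspa8-202 at 3.58 TPM in replicate 1.

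**Figure D4:**
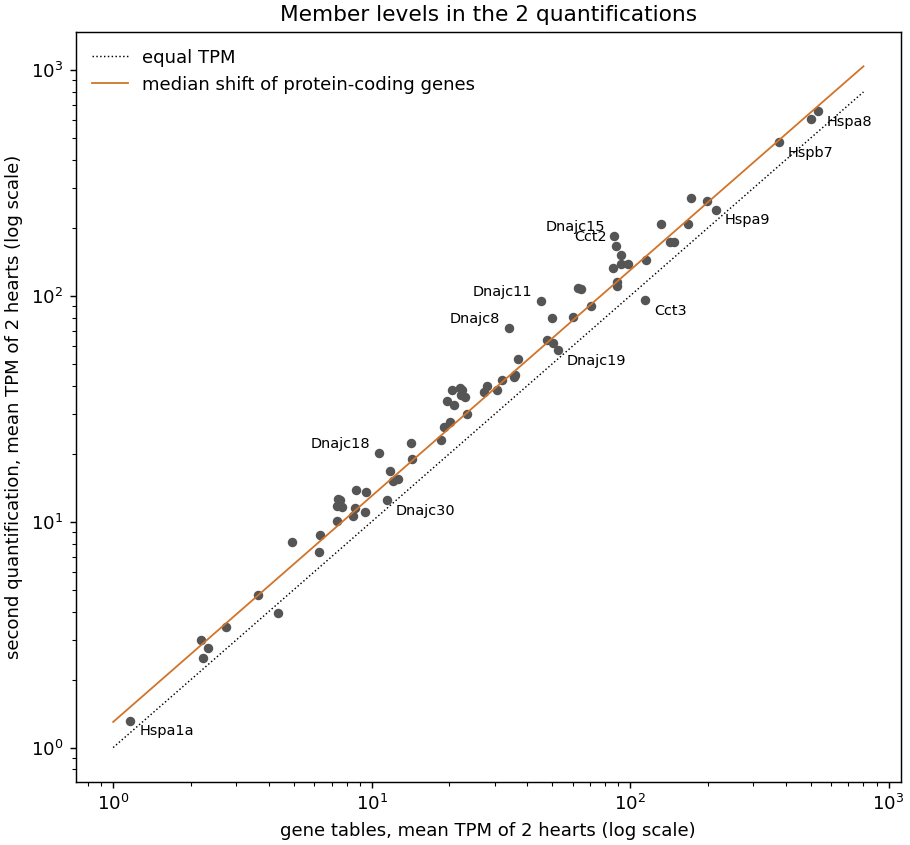
Mean level of each of the 75 expressed members in the gene tables against the second quantification (TPM, both axes log), with lines for equal TPM and for the median shift of protein-coding genes. Most members lie near the shifted line, with Cct3 below it and Dnajc15, Dnajc8 and Dnajc11 above it.

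Sequence shared between genes bears on how surely reads can be placed. Of the 86 members, 30 shared no 31-base word with any other gene, 15 shared over 10% and 5 shared over 50% (Hspa1b, Hspa1a, Hspb1, Hsp90aa1 and Hspd1). For Hsp90aa1 it was 51.4% and for Hspd1 50.1%, mostly with processed pseudogenes, and for Hspa8 it was 43.5%. The deposited posterior SD exceeded 20% of the count in 0 of the 75 expressed members. Alleles of the parental strains of these F1 mice were not analysed here.

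The hearts were then set against each other, replicate 2 over replicate 1, on expected counts scaled by TMM (a trimmed mean over all genes). To be called, a gene needed a 2-fold ratio, a mean of 1 TPM, 20 counts over both libraries and a 95% interval (Clopper-Pearson, exact) that left out equality. This compares 2 libraries and has no replicate check. None of the 75 members tested was called, against a background of 0.86% of 13598 genes, and at 1.5-fold the count was again 0, against 2.29%. Without the TPM minimum 2 low members were called, Dnajc22 (log2 ratio -1.30, 95% interval -2.73 to -0.13) and Dnajc6 (-1.10, -2.14 to -0.19), on the counts given above. The share of all genes called without that minimum was not computed, so these 2 calls have no background. Within 1.2-fold lay 71 of the 75, or 94.7%, against 86.7% of all genes. Counting error in a ratio is smaller at higher counts, and members had the higher median count, given below. The median log2 ratio was -0.063, against -0.0031 over all genes, with 20 members higher and 55 lower in replicate 2 (26.7% higher, against 48.9% of all genes).

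The counting interval excluded equality in 30 members, or 40.0%, against 23.7% of all genes. It lay above 0 in 4 (background 10.4%) and below 0 in 26 (background 13.3%). The width of an interval depends on the count, and the median summed count was 2794 for members and 1290 for all genes tested. The direction depends on the scaling. With spike-in scaling, which moves the median gene by 0.13, 57 members were higher and 18 lower (76.0% higher, against 84.2% of all genes), the intervals lay above 0 in 29 (background 44.2%) and below in 1 (background 2.92%), and the median was 0.070 against 0.13 over all genes. With total counts 31 were higher and 44 lower (41.3% higher, against 64.0% of all genes). By the ratio of TPM, 42 were higher and 33 lower, with a median of 0.017 against 0.083 over all genes. Another scaling shifts every gene alike, so the gap between members and all genes is the same under TMM and spike-in scaling.

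Among families with several members, the small heat shock proteins had the lowest median ratio. Of 7 tested, 6 were lower in replicate 2 (51.1% of all genes) with a median of -0.18, and 5 intervals lay below 0 (13.3% of all genes). With spike-in scaling 5 of 7 were lower, against 15.8% of all genes, and the median was -0.050. Hspb6 had 4387 and 3347 expected counts, a log2 ratio of -0.28 (-0.35 to -0.22). Its interval was the only one of any member that stayed below 0 with spike-in scaling. Hspb3 stood at -0.33 (-0.62 to -0.052), Hspb8 at -0.18 (-0.29 to -0.077), Hspb1 at -0.14 (-0.21 to -0.077) and Hspb7 at -0.13 (-0.16 to -0.11). With spike-in scaling Hspb7 was at 0.00082, and the other 3 kept their sign at -0.20, -0.050 and -0.0097. Hspb11 stood at -0.32 (-0.73 to 0.086), with an interval that includes 0, as did Hspb2 at 0.030 (-0.098 to 0.16).

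The other downward ratios among the 5 largest were those of Hspa1a, -0.41 (-0.87 to 0.029), and Dnajc12, -0.24 (-0.74 to 0.26), whose intervals include 0. Upward, the 5 largest were Dnajc28 at 0.24 (-0.051 to 0.53), Bag5 at 0.21 (0.061 to 0.37), Dnajc9, a histone chaperone, at 0.19 (0.038 to 0.35), Dnaja4 at 0.13 (0.030 to 0.24) and Hspa12b at 0.13 (0.022 to 0.24). The 2 highest members had small ratios, Hspa8 at -0.048 (-0.073 to -0.023) and Hsp90ab1 at -0.090 (-0.11 to -0.066). With spike-in scaling they stood at 0.086 and 0.044, on the other side of 0. All 6 Cct genes had ratios below 0 (-0.15 to -0.0027), against 51.1% of all genes, 4 of them with intervals below 0, against 13.3%. With spike-in scaling 4 of the 6 were above 0, against 84.2% of all genes.

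**Figure D5:**
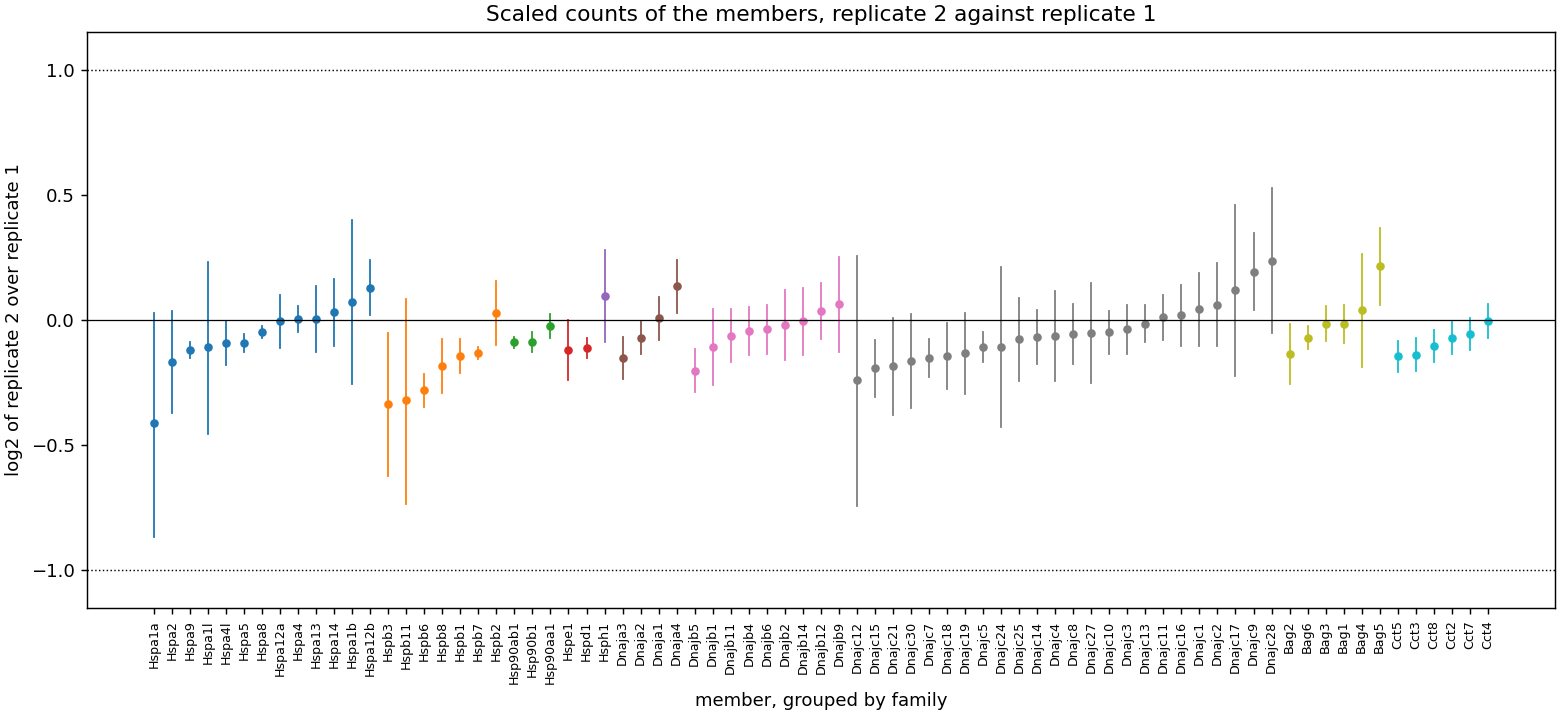
Log2 ratio of TMM-scaled expected counts, replicate 2 over replicate 1, for the 75 members tested, coloured by family and ordered by ratio within it, with exact 95% intervals for counting error as lines and the 2-fold threshold dotted. Every ratio lies within the dotted lines, and 6 of the 7 Hspb genes lie below 0.

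Markers of tissue content are given for these libraries. Expected counts totalled 36175363 and 32509660, and all 10 cardiomyocyte markers were expressed in the top 10% of genes, with sums of 33622 and 33561 TPM. Erythroid markers differed, with sums of 17279 and 221 TPM and 6 of 6 tested called lower in replicate 2 (Ahsp was not found by symbol in the annotation), as did skeletal muscle markers at 308 and 132 TPM, 7 of 7 called lower. Of the 8 neural and Schwann cell markers, 2 of 3 tested were called lower, with sums of 27.5 and 6.02 TPM. Macrophage markers (44.9 and 62.7 TPM) and fibroblast markers (1805 and 2178 TPM) were higher in replicate 2 in 8 of 8 cases each, with none called. Endothelial markers were lower in 7 of 8 under TMM but in 2 of 8 with spike-in scaling, with none called. Of all genes 51.1% were lower under TMM and 15.8% with spike-in scaling. The part of these markers in the ratios of the members was not tested. In bulk tissue, fewer cells of a type and less RNA per cell cannot be told apart.

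Partner genes outside the naming rule were read from 6 lists, and 0 of their genes were called between the hearts. Of 12 regulators of the heat shock and ER stress responses, 10 were expressed. Hsf1, the main heat shock factor, stood at 19.1 and 20.5 TPM and Hsf2 at 10.5 and 11.5 TPM, while Hsf4 and Hsf5 were below 1 TPM. Hsbp1, which binds heat shock factor 1, was higher at 79.7 and 80.5 TPM. Of the ER regulators, Atf4 stood at 52.6 and 53.2 TPM, Xbp1 at 29.0 and 29.3 TPM and Atf6 at 18.3 and 19.7 TPM.

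All 16 co-chaperones of HSP70 and HSP90 outside the families were expressed, with Fkbp4 highest at 88.3 and 88.4 TPM. Unc45b, which folds myosin with HSP90 in muscle, followed at 78.7 and 79.97 TPM, against 10.2 and 10.1 TPM for its widely expressed relative Unc45a. Stip1, which passes proteins from HSP70 to HSP90, stood at 66.8 and 67.9 TPM and the ubiquitin ligase Stub1 at 65.9 and 68.1 TPM. All 10 prefoldin and CCT helper genes were expressed, from Pfdn4 at 6.83 and 8.35 TPM to Pfdn5 at 148 and 147 TPM.

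All 13 ER folding genes were expressed and 8 were in the top 10%. Serpinh1, the collagen chaperone, stood at 266 and 258 TPM, above Hspa5, and Calr at 159 and 161 TPM. Under TMM all 13 had ratios below 0 (51.1% of all genes), with a median of -0.055 and 4 intervals below 0 (13.3% of all genes). With spike-in scaling 12 of 13 were above 0, against 84.2% of all genes. All 10 mitochondrial folding genes were expressed. Trap1, the mitochondrial HSP90, stood at 56.9 and 63.6 TPM, and Grpel1, the exchange factor of Hspa9, at 25.9 and 25.5 TPM against 218 and 211 TPM for Hspa9 itself. The muscle list held the small heat shock genes Cryab and Cryaa, the myosin folding genes Smyd1 and Unc45b, and Flnc, Synpo2 and Des, which are not chaperones. Of its 7 genes 6 were expressed, and Cryaa had a count of 0. Under TMM all 6 had ratios below 0, with a median of -0.12 and 5 intervals below 0. With spike-in scaling 3 of 6 were below 0, against 15.8% of all genes. The 5 intervals under TMM were those of Flnc, the partner of Hspb7, at -0.24 (-0.27 to -0.22), Smyd1, which works on myosin, at -0.18 (-0.21 to -0.14), Synpo2, Des and Cryab.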

How the data were processed

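Total RNA of 2 hearts was analysed. In the gene tables that the authors deposited, reads aligned to the transcriptome were turned into expected counts (estimated counts, which may be fractional), TPM and posterior mean TPM, and a posterior SD used here as a score of how uncertainly reads were divided. The deposited transcript tables, 2 for each library, give estimated counts and TPM by separate quantifications. All use mm10 and GENCODE M21, per the file headers and notes, which do not name the programs. The second transcript quantification was summed per gene.

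Expected counts were rounded and scaled by TMM (edgeR 4.0.16, R 4.3.3) with a prior count of 0.5, with exact Clopper-Pearson intervals. The script was tested on simulated data. Alternatives used DESeq2 1.42.0 size factors, total counts, spike-ins, other units, filters and single libraries. Python 3.11.15, numpy 2.4.6, pandas 2.3.3 and scipy 1.17.1 were used. Depth was 36175363 and 32509660 expected counts. Intervals reflect counting error alone, and reads that carry no molecular identifier may repeat a molecule.

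The members and lists were chosen with earlier results of these data known. Named were members at 20 TPM or more, the top 3 of each family, those with a count of 0, those of 20 fixed pairs, the 5 largest ratios each way, the 5 largest differences between quantifications, members led by a noncoding transcript and all CCT subunits. Others were named after their values were seen, among them single transcripts, low members and list genes.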

Additional observations from a re-analysis of the deposited data

How the results depend on the processing

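No paired analysis was possible because the 2 libraries form a single group. The number expressed was 67 at a threshold of 5 TPM and 75 under every other setting, each library alone included. The members' share of the total, 0.474% by TPM, was 0.642% in the second quantification, 0.467% by posterior mean TPM, 0.728% by CPM and 0.402% with protein-coding transcripts only, an alternative chosen after seeing the data. In the second quantification the families' shares were Hspa 21.8%, Hsp90 15.4%, Dnajc 14.6%, Cct 11.7%, Bag 6.45%, Dnaja 4.53% and Dnajb 4.19%. By CPM they were Hspa 27.1%, Hsp90 18.2%, Hspb 14.7%, Dnajc 11.1%, Cct 9.39%, Bag 6.37%, Dnajb 4.56%, Hspd with Hspe 4.48% and Hsph 0.198%. The CCT range was 1.84-fold in the second quantification and 2.03-fold with protein-coding transcripts only, also chosen after seeing the data. By CPM the log2 ratio was -0.074 for Hspb1 over Hspb6 and -0.22 for Bag1 over Bag3. The median log2 ratio of members between the hearts was 0.070 with spike-in scaling and 0.017 by TPM, the latter chosen after seeing the data. Spike-in scaling turned the sign, with intervals past 0 both ways, of Hspa8 (0.086), Hsp90ab1 (0.044), Hspa5 (0.042), Hsp90b1 (0.047) and Bag6 (0.063). In 40 others it changed whether the interval excluded equality, 20 each way. Without a TPM minimum 2 members were called, with no share over all genes computed beside them. Ratios between the hearts need both libraries, so neither can be left out. The causes of these changes were not tested.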
